A study of Sus scrofa with 5 samples.

Results

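The expression of 10 antioxidant enzymes was examined in pig backfat, the subcutaneous fat of the back, on Affymetrix porcine arrays. The genes were SOD1, SOD2, CAT, GPX1, GPX4, PRDX1, PRDX2, PRDX3, PRDX5 and PRDX6, and every probe set annotated with exactly 1 of these symbols was taken. All 10 genes were measured, by 11 of 23935 probe sets and out of 6765 genes with a probe set of their own. The arrays came from 5 females of an Iberian x Landrace backcross to Landrace, 1 array per animal. BC4, BC5 and BC6 belonged to the H group and BC2 and BC3 to the L group. The study ranked the backcross animals on traits of the carcass and of intramuscular fatty acids. In its comparison, animals of the H group had more intramuscular polyunsaturated fatty acids (PUFA), and those of the L group more saturated and monounsaturated ones. That comparison also included BC1 of the L group, which has no array here. None of the animals was treated, all were fed the same cereal-based commercial diet without restriction, and they were fasting at slaughter. Their age at slaughter is given by the study as a mean over animals and not for each of them. The groups are extremes of a segregating cross and not lines that differ at a known locus.

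Cells that use oxygen release superoxide and hydrogen peroxide, and these enzymes remove both in relay. Superoxide dismutases turn superoxide into hydrogen peroxide, which catalase, glutathione peroxidases and peroxiredoxins then turn into water, each in its own compartment. The peroxidases draw electrons from glutathione or thioredoxin, whereas catalase needs no such donor. In fat, hydrogen peroxide comes from the mitochondria and from the peroxisomal oxidation of fatty acids, and the polyunsaturated acyl chains of membranes and stored lipid are the ones most readily peroxidised.

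The values are log2 intensities per probe set that the authors had adjusted for background and normalized between arrays, so a difference of 1 is a doubling. They ran from a floor of 2.17 to 16.1, with array medians of 4.24 to 4.32. The adipocyte marker FABP4 was at 15.36 to 15.48 on all 5 arrays, whereas the hepatocyte gene ALB was at 4.69 at most and SERPINA1 and CPS1 were at the floor throughout, although 1 label of the series names liver as the source of the RNA. Of 12 listed hepatocyte genes 11 were measured, and the exception among them was APOA1, at 12.20, 12.57 and 12.34 in H and at 11.29 and 11.98 in L. The arrays were thus taken as backfat, as the tissue label has it. Skeletal muscle markers were unevenly distributed, with a mean over 7 measured genes of 10 of 2.87, 6.02 and 2.47 on BC4, BC5 and BC6 and of 2.64 and 4.46 on BC2 and BC3. The array of BC5, and to a lesser extent that of BC3, therefore carried muscle transcripts that the other arrays hardly showed. In whole tissue, fewer cells of a type and less RNA per cell cannot be told apart.

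All 10 genes were brightly detected. The lowest value of any member by its brighter or only probe set was 9.46, and each of these probe sets lay at or above the 88.2th percentile of its array on every animal. Ranks describe the brightness of a probe set and do not set the amount of one mRNA against another. The second probe set of GPX4 was the exception, at 2.21 on 4 arrays and 2.31 on BC6, close to the floor, and GPX4 is therefore described by the first.

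**Figure D1:**
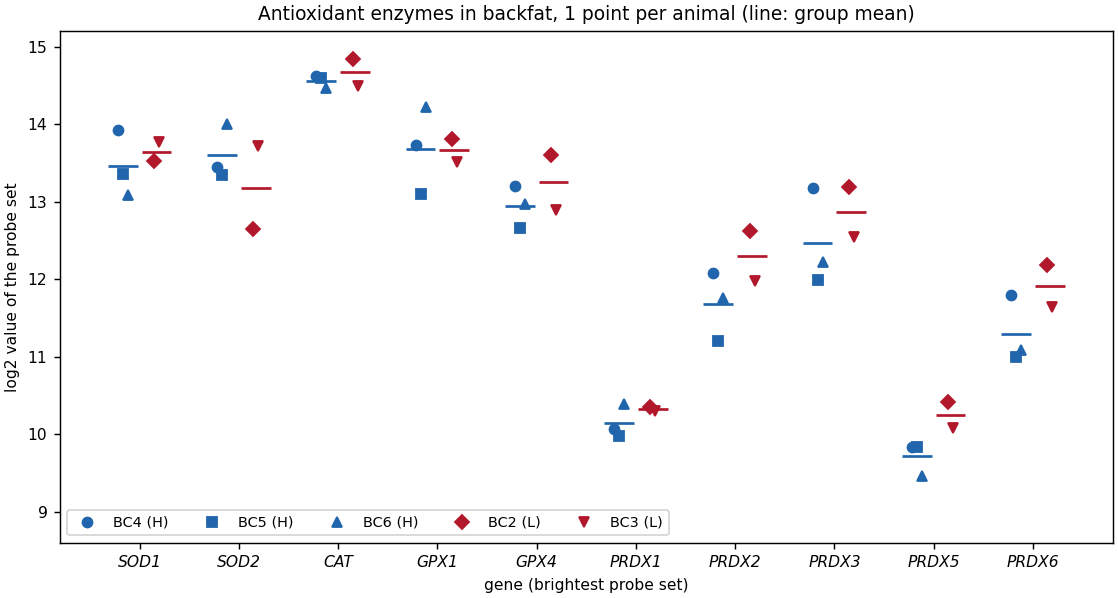
Log2 value of each antioxidant enzyme (y axis) by gene (x axis), 1 point per animal, blue for the 3 H animals and red for the 2 L animals, where a line marks the mean of each group. The H and L points overlap for 9 of the 10 genes, and only for PRDX5 do all 3 H points, between 9.46 and 9.84, lie below both L points, at 10.08 and 10.42.

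The dismutases and catalase did not differ between the groups beyond the spread between animals. CAT, the peroxisomal enzyme that splits hydrogen peroxide, was at 14.63, 14.59 and 14.46 in H and at 14.84 and 14.50 in L. Its probe set ranked between 19 and 47 from the top on the 5 arrays, and its range of 0.38, a factor of 1.30, was the narrowest among the 10 enzymes. It averaged 14.56 ± 0.0857 (SD, n = 3) in H, against 14.67 ± 0.244 (SD, n = 2) in L, and H minus L came to -0.11 (standard error, SE, of 0.136, limma adjusted p = 1). SOD1, the copper-zinc dismutase of the cytosol, was at 13.92, 13.36 and 13.09 in H and at 13.52 and 13.77 in L. Both L animals thus lay inside the range of the H animals, and the difference was -0.19 (SE 0.313).

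SOD2, the manganese dismutase of the mitochondrial matrix, was the only one of the 10 enzymes that was lowest on BC2. It was at 13.45, 13.35 and 14.00 in H and at 12.64 and 13.72 in L, so that BC6 of the H group was highest and BC2 of the L group lowest. The means were 13.60 ± 0.351 (SD, n = 3) in H, against 13.18 ± 0.762 (SD, n = 2) in L. The difference of 0.42 (SE 0.453, limma adjusted p = 1) was the largest in favour of H among the 10 genes, yet smaller than the gap of 1.08 between the 2 L animals. Macrophage markers were also highest on BC6. Of 10 listed, 5 were measured (CD163, CD14, AIF1, MRC1 and C1QA), with a mean of 5.48, 5.48 and 7.43 on BC4, BC5 and BC6 and of 6.01 and 6.45 on BC2 and BC3. BC6 and BC3 were the top pair of animals for this mean and for SOD2 alike, whereas BC2 was lowest for SOD2 and in the middle for the markers. The part of macrophages in the values of SOD2 was not tested.

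The pair of selenium-dependent glutathione peroxidases gave little sign of a group difference. GPX1, which reduces soluble hydroperoxides in cytosol and mitochondria, was at 13.74, 13.09 and 14.23 in H and at 13.81 and 13.52 in L. The 2 L animals fell within the 1.13 that separated BC5 from BC6 inside the H group, and the difference was 0.02 (SE 0.413), with an interval of -1.22 to 1.26 at 95% confidence. GPX4, which reduces phospholipid hydroperoxides within membranes and so protects them from lipid peroxidation, was at 13.20, 12.66 and 12.97 in H and at 13.60 and 12.90 in L. BC2 stood above the other 4 animals, and BC3 was within the range of H. The difference was -0.31 (SE 0.314, limma adjusted p = 1), less than the 0.70 between BC2 and BC3.

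The mean of H lay below that of L for all 5 peroxiredoxins, the thiol peroxidases that are reduced again by thioredoxin or, for PRDX6, by glutathione. Their median difference was -0.54, beside 0.00 for all probe sets. PRDX5, which is found in mitochondria, peroxisomes and cytosol, was at 9.84, 9.84 and 9.46 in H and at 10.42 and 10.08 in L. It was the only one of the 10 enzymes whose groups did not overlap. It averaged 9.71 ± 0.219 (SD, n = 3) in H, against 10.25 ± 0.237 (SD, n = 2) in L, and H minus L came to -0.54 (SE 0.194, unadjusted p = 0.0615, adjusted p = 1 by limma). This was the smallest p-value of the 10 enzymes, and the interval at 95% confidence ran from -1.12 to 0.05.

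PRDX6, which also has phospholipase activity and reduces oxidised phospholipids, was at 11.80, 10.99 and 11.09 in H and at 12.19 and 11.64 in L. BC4 of the H group lay above BC3 of the L group, and the remaining H animals lay below both. The difference of -0.62 (SE 0.366, limma adjusted p = 1) corresponds to 0.649 times the L level. PRDX2, a cytosolic peroxiredoxin best known as an abundant protein of red blood cells, was at 12.08, 11.20 and 11.76 in H and at 12.62 and 11.98 in L, a difference of -0.62 (SE 0.388). The globin gene HBB, a red blood cell transcript, was at 9.42, 9.16 and 8.99 in H and at 9.18 and 9.19 in L, and its difference was 0.00. Of 9 listed red blood cell markers 4 were measured, with means of 4.13, 4.06 and 4.02 in H and of 4.07 and 4.07 in L, of which HBB alone was well above the floor. ALAS2 stayed at 2.73 to 2.75, HBE1 was at the floor, and AHSP was at 2.17 on the H arrays and at 2.19 and 2.20 on the L arrays.

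PRDX3, the peroxiredoxin of the mitochondrial matrix, was at 13.18, 11.99 and 12.22 in H and at 13.19 and 12.55 in L. BC4 and BC2, from different groups, were almost equal and above the other 3 animals. The gap of 1.18 between BC4 and BC5 was the widest within a group for any of the 10 enzymes, and the group difference was -0.40 (SE 0.496, limma adjusted p = 1). PRDX1, the main cytosolic peroxiredoxin, varied less. It was at 10.07, 9.98 and 10.39 in H and at 10.35 and 10.30 in L, a difference of -0.17 (SE 0.156), and the L animals differed by only 0.05.

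Between the groups, 8 of the 10 enzymes had a lower mean in H and 2, SOD2 and GPX1, a higher one (GPX1 turned to -0.02 with median centring of the arrays), with a median difference of -0.25. Over the 14361 probe sets left without the dimmest 40%, the median difference was 0.02, and 45.6% had a lower mean in H. The threshold in limma combined an unadjusted p of at most 0.01, an adjusted p of at most 0.1 and at least a 1.2-fold difference. No enzyme passed it, and neither did any other probe set (0.0%). At an unadjusted p under 0.05 the count was 0 of 10 enzymes, beside 3.18% of all probe sets (1.58% lower and 1.6% higher in H). This count became 1 of 10 with PRDX5 under median centring, an intensity trend or the filter on dim probe sets, and with PRDX1 without BC6, where the adjusted p in limma was 0.538 or more. Of all probe sets fitted in these settings, 4.22% with median centring, 3.05% with the trend, 4.44% with the filter and 4.24% without BC6 did so. All H animals lay below both L animals for 1 of 10 enzymes, beside 9.38% of the 12729 probe sets with 5 distinct values, and above both for 0, beside 11.5%. In either direction this was 1 of 10 enzymes, beside 20.9%. The intervals remain wide. They reached a difference of -1.89 for PRDX3 and 1.78 for SOD2 and were narrowest for CAT, at -0.52 to 0.30, so a difference of 1 on the log2 scale, in one direction at least, lay within the interval for SOD1, SOD2, GPX1, GPX4, PRDX2, PRDX3, PRDX5 and PRDX6.

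**Figure D2:**
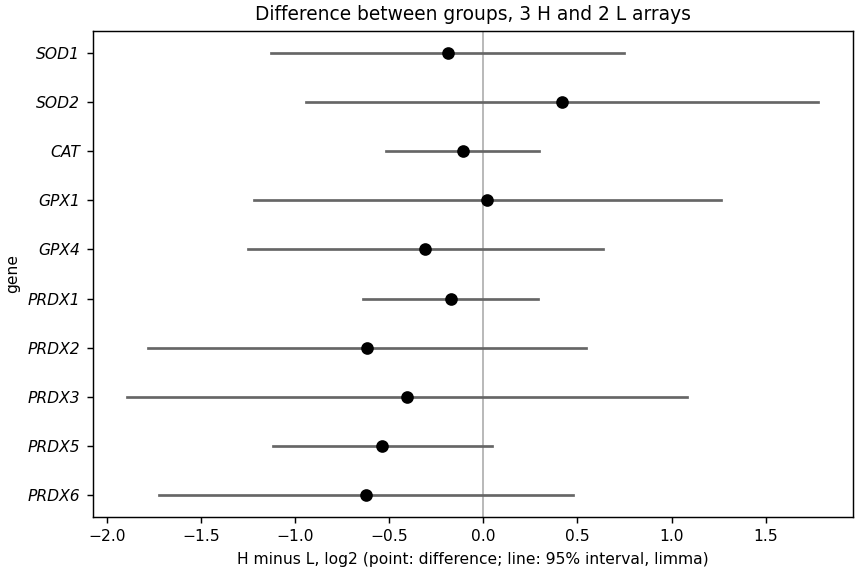
Difference between the groups, H minus L on the log2 scale (x axis), for each of the 10 enzymes (y axis), as a point with the 95% confidence interval from limma. Every interval includes 0, that of PRDX5 only just, at -1.12 to 0.05, and 8 of the 10 points lie below 0.

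The difference between animals of the same group was in most cases larger than that between the groups. The gap between BC2 and BC3 exceeded the size of the group difference for 7 of the 10 enzymes, and the range of the H animals did so for 9. PRDX5 was the enzyme for which neither did. These counts are given without the share of all probe sets, and do not set the enzymes apart from other genes. The spread over the 5 animals was above the median of the brighter 60% of probe sets, an SD of 0.276, for 8 enzymes. PRDX3 was the most variable, with an SD of 0.544, and CAT the least, with 0.149.

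Several enzymes shared an order of the animals that did not follow the groups. BC2 was the highest animal for CAT, GPX4, PRDX2, PRDX3, PRDX5 and PRDX6, that is 6 of 10, beside 21.4% of the probe sets with distinct values. BC5 was the lowest for GPX1, GPX4, PRDX1, PRDX2, PRDX3 and PRDX6, again 6 of 10, beside 26.3%. PRDX2, PRDX3 and PRDX6 ranked the animals identically, from BC2 over BC4, BC3 and BC6 to BC5, as did 2.54% of the probe sets with distinct values. Relative to the mean of the 5 arrays, these genes stood at -0.73, -0.63 and -0.55 on BC5 and at 0.69, 0.56 and 0.65 on BC2. BC4 lay above BC5 for 9 of the 10 enzymes and BC2 above BC3 for 8, beside 50.6% and 46.5% of the brighter probe sets. These orders were noticed in the data, the genes are not independent of each other, and no test was made of them.

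**Figure D3:**
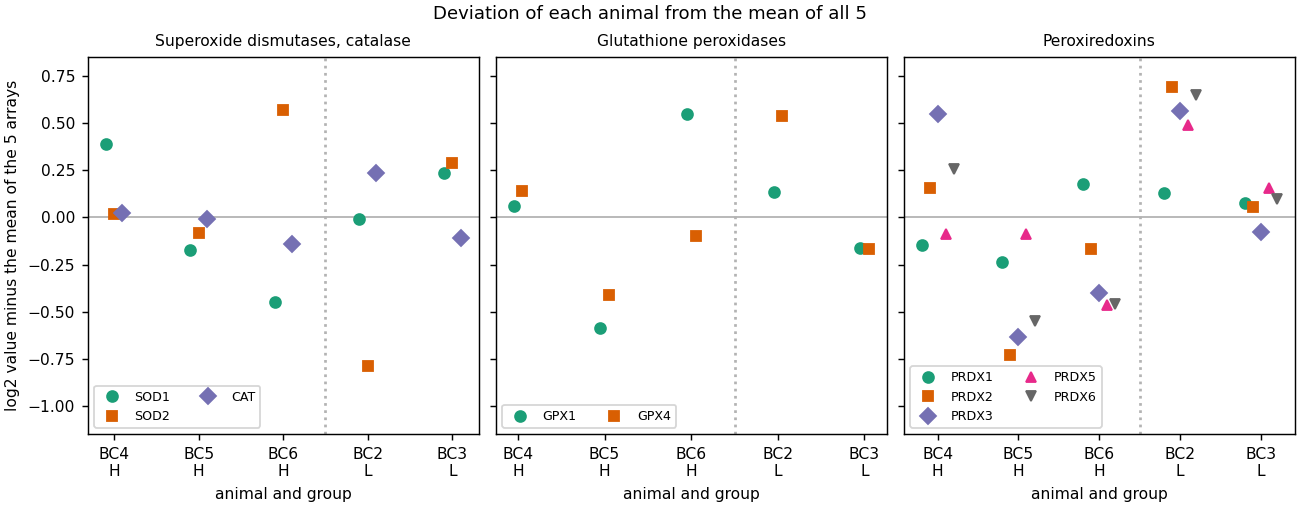
Log2 value of each enzyme minus its mean over the 5 arrays (y axis), by animal (x axis), with the H animals left of the dotted line and the L animals right of it, in 3 panels by enzyme family. PRDX2, PRDX3 and PRDX6 are lowest on BC5 and highest on BC2, while SOD2 is lowest on BC2, at -0.79, and highest on BC6, at 0.57.

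The animals at the ends of this order also differed in their markers. Adiponectin (ADIPOQ), a hormone made by fat cells, was at 12.20, 9.09 and 10.92 in H and at 11.82 and 10.52 in L, and leptin (LEP) at 8.27, 4.41 and 10.48 in H and at 9.34 and 8.43 in L. The mean over the 6 measured of 10 adipocyte markers was 10.65, 9.40 and 10.78 in H and 10.82 and 10.37 in L. The markers were divided on BC5, where ADIPOQ, LEP and LPL were lowest of the 5 arrays and FABP4 and LIPE highest, while RETN was at 2.17 on all arrays. LEP had the widest range of the 6. Muscle markers, as given above, were highest on BC5. Endothelial markers, 9 of 9 measured, had means of 8.13, 8.80 and 7.84 in H and of 7.60 and 8.11 in L, highest on BC5 and lowest on BC2. The part of tissue composition in the low values of BC5 was not tested.

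The direction of the peroxiredoxin differences did not hang on a single animal, but their size did. With each animal left out in turn, PRDX2 stayed between -0.94 and -0.30, PRDX5 between -0.70 and -0.37, PRDX6 between -0.90 and -0.35, PRDX1 between -0.30 and -0.09 and PRDX3 between -0.76 and -0.09. The smallest differences of PRDX2, PRDX3, PRDX5 and PRDX6 were those without BC2, the animal with the highest values. SOD1 ran from -0.42 to -0.01, its smallest size being that without BC6. The direction turned without BC2 for SOD2 (-0.12), CAT (0.06) and GPX4 (0.04), and GPX1 took either sign, from -0.25 without BC6 to 0.32 without BC5. No member passed the threshold in any of these fits, and where 1 L animal was left, its spread was taken to equal that of the H animals.

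**Figure D4:**
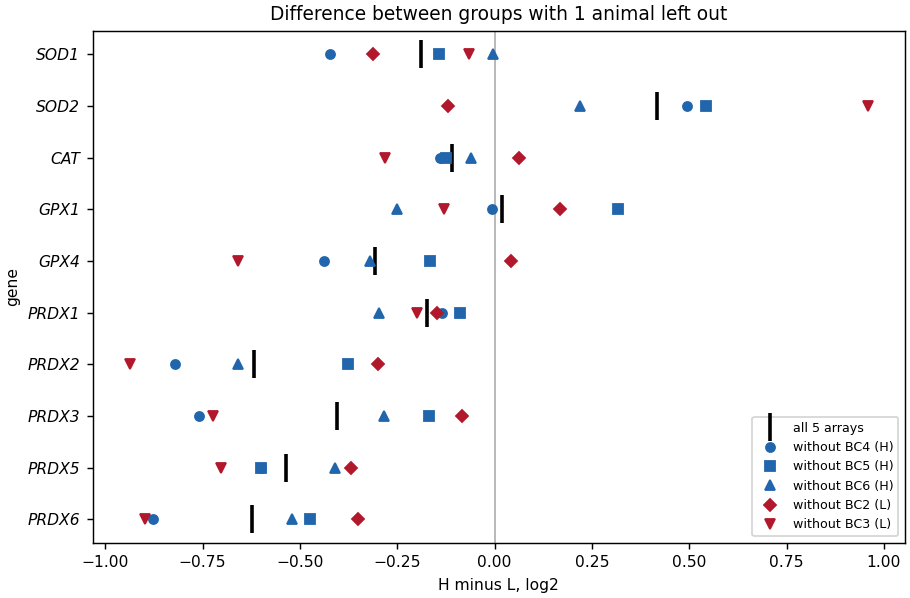
Difference between the groups, H minus L on the log2 scale (x axis), for each enzyme (y axis), with all 5 arrays (black bar) and with each animal left out (blue when an H animal was left out, red when an L animal was). The points of all 5 peroxiredoxins and SOD1 stay below 0, and those of SOD2, CAT, GPX1 and GPX4 lie on both sides of it.

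The genes around these enzymes were taken from 7 lists of 79 genes, of which 55 were measured. None passed the threshold in limma, where 0.0% of all probe sets did. At an unadjusted p under 0.05 there were 4 lower and 2 higher in H, each with an adjusted p of 1. The 55 genes are represented by their brightest probe set, and 5 of them had 1 value on all arrays. The share was 12.0% of the other 50, beside 5.09% of all 5831 genes whose brightest probe set had more than 1 value. All H animals lay above both L animals for 5 of these 50 and below both for 5, beside 11.5% and 9.38% of the probe sets with 5 distinct values. The lists were chosen with earlier results of these data known, so the shares do not set their genes apart. The median difference of the 55 was -0.03, beside 0.00 for all probe sets. Of the other members of the enzyme families, GPX3, the secreted glutathione peroxidase of plasma, was at 13.15, 12.00 and 11.46 in H and at 11.44 and 12.13 in L, a difference of 0.41 (SE 0.659). PRDX4, the peroxiredoxin of the endoplasmic reticulum, differed by -0.25 (SE 0.278) and GPX7, a peroxidase of the same compartment, by 0.08. SOD3, GPX2, GPX5 and GPX6 each had 1 value on all 5 arrays, of at most 2.29, and no level could be read for them.

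The thioredoxin system passes electrons from NADPH to the peroxiredoxins. Its list, of which 7 genes of 11 were measured, also holds genes outside this relay. The mean was higher in H for 4 (TXNRD1, TXNRD3, TXNIP and TXNL1) and lower for 3 (TXN, TXN2 and SESN1), with a median difference of 0.09. TXNRD1, the cytosolic thioredoxin reductase, was at 9.00, 9.11 and 9.18 in H and at 8.99 and 8.78 in L. All H animals lay above both L animals, by a narrow margin at BC4, and the difference was 0.21 (SE 0.0993, limma adjusted p = 1). TXN2, the mitochondrial thioredoxin that reduces PRDX3, differed by -0.33 (SE 0.175). Its order of animals was that of PRDX3, as it was for 2.54% of the probe sets with distinct values, and was noticed in the data. TXNRD3, a reductase best known from the testis, differed by 0.35, at a level close to the array medians.

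Of the 12 genes of glutathione synthesis and recycling, 10 were measured, with 7 means lower and 3 higher in H. GLRX5, a mitochondrial glutaredoxin needed for the assembly of iron-sulfur clusters, was at 7.99, 7.95 and 8.24 in H and at 8.82 and 8.83 in L. The groups did not overlap, and the difference of -0.77 (SE 0.112) had a limma p of 0.00440 unadjusted and 1 adjusted. MGST1, a microsomal glutathione transferase with peroxidase activity, differed by -0.40 (SE 0.449) and GSR, the glutathione reductase, by 0.17 (SE 0.278). Among 7 measured regulators and stress targets, the copper chaperone CCS, which loads SOD1, differed by -0.18, the metallothionein MT1A by 0.51 and the ferritin light chain FTL by 0.06. NFE2L2 and KEAP1, the regulators that switch on many antioxidant genes, and SRXN1, which repairs overoxidised peroxiredoxins, were not measured by a probe set of their own.

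Of the sources of hydrogen peroxide, 5 of 10 genes were measured, with a median difference of 0.03. MAOA, the monoamine oxidase of the outer mitochondrial membrane, was at 10.05, 10.24 and 10.39 in H and at 10.68 and 10.60 in L. The groups did not overlap, and the difference was -0.42 (SE 0.120, unadjusted p = 0.0343, adjusted p = 1 by limma). DUOX2, a dual oxidase, was at 7.34, 5.33 and 5.74 in H and at 5.26 and 4.52 in L, a difference of 1.24 (SE 0.794), with BC4 well above the other 4 animals. CYBA, a subunit of the NADPH oxidase of phagocytes, differed by 0.68 and, like the macrophage markers, was highest on BC6.

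Since PRDX3, SOD2 and CAT reside in mitochondria or peroxisomes, genes of these organelles were set beside them. The 9 measured mitochondrial genes had a median difference of -0.26, with 6 means lower and 3 higher in H. HSPD1, the mitochondrial chaperonin, was at 12.60, 12.44 and 12.50 in H and at 12.95 and 12.78 in L, a difference of -0.35 (SE 0.0825, unadjusted p = 0.0188, adjusted p = 1 by limma). SDHB, a subunit of succinate dehydrogenase, differed by -0.43, and VDAC2, a channel of the outer membrane, by 0.26 (SE 0.0739, unadjusted p = 0.0325 by limma). The 9 peroxisomal genes that varied had a median difference of -0.51, with 8 means lower in H. PEX7, the receptor that imports a set of peroxisomal enzymes, was at 7.97, 7.68 and 7.83 in H and at 8.77 and 8.37 in L, a difference of -0.75 (SE 0.174, unadjusted p = 0.0184, adjusted p = 1 by limma). PEX16, which is needed for peroxisome formation, was higher in H by 0.20 (SE 0.0384, unadjusted p = 0.00973, adjusted p = 1 by limma). PXMP4, a membrane protein of peroxisomes, was at 3.97 on BC2 and at 3.40 or less on the other arrays. BC2 was the highest animal, as for CAT, for PEX2, PEX3, PEX7, PEX13, PEX19, PXMP4, ABCD3 and HSD17B4, and BC4 for PEX16. Among the mitochondrial genes BC2 was highest for CS, VDAC1, ATP5A1, ATP5B, SDHB and HSPD1, and not for VDAC2, TFAM and SDHA. A high BC2 was thus not particular to the antioxidant enzymes, and BC2 was highest for 21.4% of all probe sets with distinct values. VDAC1, PEX13, PEX19 and HSD17B4 shared the order of animals of PRDX2, PRDX3 and PRDX6, as did 2.54% of the probe sets with distinct values. The genes named here for their highest animal or order were named after their values had been seen.

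**Figure D5:**
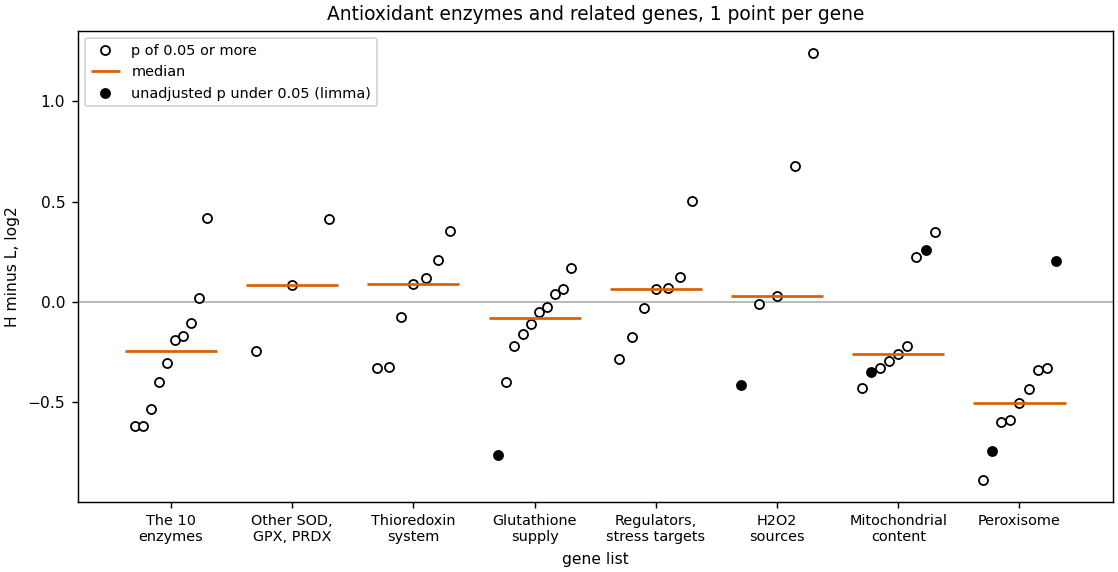
Difference between the groups, H minus L on the log2 scale (y axis), for the 10 antioxidant enzymes and the genes of 7 related lists (x axis). Each point is 1 gene by its brightest probe set, where that had more than 1 value over the arrays. Points are filled at an unadjusted p under 0.05 by limma, and a line marks each list's median. The median is -0.25 for the enzymes and -0.51 for the peroxisomal genes, and the filled points are 4 below 0 and 2 above.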

How the data were processed

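Backfat RNA of 3 H and 2 L females was hybridized to porcine GeneChip arrays. The deposited values are log2 summaries per probe set that the authors had adjusted for background and normalized between arrays. The methods name GCRMA for this and the submitters' processing notes RMA, so the method is not settled. The labels give animal names, and the groups follow from these names in the study. Of 24123 probe sets, 188 controls were left out. The difference between H and L was estimated for the remaining 23935 with limma (version 3.58.1, R version 4.3.3), without covariates, and p-values were adjusted over all of them by Benjamini-Hochberg. The labels name no batch, and nothing beyond the animal separates replicates.

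Genes were named through the platform annotation, where 10069 probe sets have 1 symbol, 198 several and 13668 none. All 10 symbols are unchanged in a current RefSeq table. The brightest probe set by its mean over all arrays stands for a gene. All members are described, with up to 3 genes of smallest p from each related list. Further genes of the mitochondrial and peroxisomal lists are named for their highest animal or order of animals. All measured genes of the thioredoxin list are named by direction. Members and lists were chosen with earlier results of these data known. Alternatives were other scalings, variance models, array weights, a filter on dim probe sets and leaving out each animal. The fit was tested on simulated data.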

Additional observations from a re-analysis of the deposited data

How the results depend on the processing

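No paired analysis was made, because the labels name no pairs of H and L animals. Each animal has its own name, which says nothing about kinship between the groups. The small number of arrays, 3 of H and 2 of L, limits how precisely any difference is known. No antioxidant enzyme and no gene of the related lists passed the threshold under any alternative. Over all probe sets the count stayed at 0 with the other scalings, the intensity trend, array weights and the filter on dim probe sets, was 0 to 286 with 1 animal left out (286 without BC3, 159 without BC2) and was 762 at an unadjusted p under 0.05. At that threshold, with the other settings as reported, 0 member probe sets and 6 genes of the related lists passed. In limma, PRDX5 passed it with median centring (unadjusted p = 0.0398, adjusted p = 0.538), an intensity trend (unadjusted p = 0.0487, adjusted p = 1) and the filter on dim probe sets (unadjusted p = 0.0463, adjusted p = 0.879), and PRDX1 without BC6 (unadjusted p = 0.0170, adjusted p = 0.990). In these settings, in the same order, 4.22%, 3.05%, 4.44% and 4.24% of all probe sets fitted passed it.

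By the brightest probe set of each gene, 93 of 100 alternative values of the enzymes' differences kept their direction and 7 turned it, and 6 of the 10 enzymes kept it in every alternative. The intensity trend and the filter on dim probe sets leave the difference itself unchanged, so their values could not turn. Median centring shifts the difference of every gene by the same amount. The 93 therefore includes values whose direction was fixed in advance. With 1 animal left out, the difference ran from -0.12 to 0.96 for SOD2, from -0.28 to 0.063 for CAT, from -0.25 to 0.32 for GPX1 and from -0.66 to 0.043 for GPX4. With median centring of the arrays, GPX1 was at -0.021 and the dim second probe set of GPX4 at -0.0080. That second probe set gave 0.032 with all arrays, a value near the floor. The cause of these turns was not tested.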

Other observations

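Several related genes had more than 1 probe set, and their values did not always go the same way. TXNRD1 had 3, all with a higher mean in H. The difference was 0.21 by the brightest and 0.53 by the dimmest (limma, unadjusted p = 0.0234, adjusted p = 1). The 2 probe sets of PRDX4 gave -0.25 for the brighter and 0.49 for the dimmer, and the 2 of CCS gave -0.18 and 0.27. Of the 3 of GPX7, the brightest gave 0.08 and the next, almost as bright, -0.28, while the last was at the floor. The 2 of SDHB gave -0.43 by the brighter and -0.0040 by the dimmer. Of the 5 of VDAC2, the brightest gave 0.26, and the others gave -0.118, 0.059, 0.445 and 0.095. No reason for these disagreements was tested.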
